A study of Mus musculus with 8 samples.

Results

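The binding of Nur77 to chromatin was compared between pluripotent stem cells and cells treated with retinoic acid (RA), using 2 of the 8 libraries of a study of nuclear FGFR1 and its partner receptors. Both came from E14Tg2a, a mouse embryonic stem cell line, used at passages 37 to 40. In the first, LIF (leukemia inhibitory factor) held the embryonic stem cells (ESCs) in the pluripotent state. In the second, LIF was withdrawn and monolayers received 1 µM RA for 48 h, a treatment that starts their development into neuronal cells (NCs). The same antibody against Nur77 (Santa Cruz SC-5569) was used for both, in chromatin immunoprecipitation followed by sequencing (ChIP-seq), which recovers the DNA attached to a protein and reads off, as peaks, the places where its fragments accumulate. Cells of several plates were pooled for a library, and each state had 1 library. A difference between the states therefore has no replicate check, no test was made, and the intervals given are exact Clopper-Pearson intervals at 95% for the error of counting alone. Peaks that lie near each other depend on each other, which makes the true error larger. The lists hold peaks and no expression values, so markers of the 2 cell states could not be looked up in them.

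Nur77, the product of Nr4a1, is an orphan nuclear receptor encoded by an immediate early gene. As a monomer it recognises the NBRE, an extended form of the nuclear receptor core AGGTCA, and as a dimer it recognises the NurRE, a pair of such sites facing apart. It can also pair with the retinoid X receptor RXR, which links it to retinoid signalling.

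A peak was called kept when it shared at least 1 bp with a peak of the other list, and LIF only or RA only when it did not. Protein-coding genes were sorted in the same way, by whether a Nur77 peak overlapped by at least 20 bp the window of 1000 bp either side of any transcript start (the proximal promoter) in both lists, in RA only, in LIF only or in neither. Peaks away from every proximal promoter are called distal. The LIF list held 22651 peaks and the RA list 25995.

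Sequences are shown first as examples of the words counted below, of which the NBRE did not mark a class at promoters. The positions are those of mm10 (GRCm38), plus strand. Capitals mark the NBRE word, AAAGGTCA or its reverse complement, in the strongest peak of each class that held it within 100 bp centred on the summit. That window can reach beyond the called peak.
Kept, promoter of Ddi2, chr4:141723133-141723162: acctggagggaAAAGGTCAcctcggagagg
RA only, promoter of Snap25, chr2:136714321-136714350: cgtcggcgcccTGACCTTTcagcaccgcgg
LIF only, promoter of Rrm1, chr7:102442218-102442247: ccccattctctTGACCTTTgtgtgttccct
RA only, distal, in Rgl1, chr1:152521210-152521239: aagacacttcaTGACCTTTctgctgtcagc
LIF only, distal, intergenic, nearest start that of Grin3a, chr4:50480695-50480724: cctttggaaggTGACCTTTctgatttaaat

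Words of other factors were more frequent at the promoter summits. CGCATGCG is the palindrome bound by NRF1, an activator of genes for mitochondria and basic cell functions, and TGACGTCA is the cAMP response element (CRE) bound by CREB and ATF factors. In the next sequences capitals mark these words, again in the strongest peak of the class.
NRF1 word, kept, promoter of Pgam1, chr19:41911795-41911824: gctacgtacaaCGCATGCGcactgccgccg
NRF1 word, RA only, promoter of Pcmt1, chr10:7663304-7663333: cccccgcggcaCGCATGCGctctgtgacgc
NRF1 word, LIF only, promoter of Gm42133, chr5:101703539-101703568: gtgggcgtgagCGCATGCGtgcatggggtc
CRE, kept, promoter between Mrrf and Rbm18, chr2:36136624-36136653: gcgctggcccgTGACGTCAtgacgcccgca
CRE, RA only, promoter of Unk, chr11:116030515-116030544: gcgcgcacgccTGACGTCAgcggccagcgt
CRE, LIF only, promoter of Rpl26, chr11:68901421-68901450: cctccgagggaTGACGTCAggacccctcgc

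A large share of the distal peaks lay on tracts in which purines and pyrimidines alternate for at least 20 bp, mostly CA repeats. The middle of the strongest such peak of each class is printed without capitals, since the whole run is the tract.
Kept, in Slc8a1, chr17:81701312-81701351: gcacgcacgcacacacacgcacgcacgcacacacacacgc
RA only, in Malrd1, chr2:16250173-16250212: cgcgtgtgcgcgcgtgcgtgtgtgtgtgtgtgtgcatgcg
LIF only, in Fli1, chr9:32438642-32438681: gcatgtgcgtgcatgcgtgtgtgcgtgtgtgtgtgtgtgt

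The number of fragments at each summit is not listed, but it could be solved from the deposited fold and −log10 p of every peak, together with the background. The lowest background of a list, taken here as the inferred depth of its library, was 4.98 fragments per kb in LIF and 3.82 in RA (RA to LIF ratio 0.767). The RA list held 1.15 times as many peaks. Because the peak caller scores against this background, 10 fragments at the lowest background gave a −log10 p of 11.8 in LIF and 12.7 in RA. The same pileup thus ranked higher in RA. Summits held between 5 and 169 fragments in LIF and between 5 and 161 in RA, with a median of 10 in both. How far the background moved the classes below was not tested.

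Most Nur77 peaks were found in one state and not in the other. Of the LIF peaks, 8044 of 22651, or 35.5% (34.9 to 36.1), overlapped an RA peak. Of the RA peaks, 8005 of 25995, or 30.8% (30.2 to 31.4), overlapped a LIF peak. At proximal promoters the shares were 34.5% (33.4 to 35.7) of LIF peaks and 33.3% (32.2 to 34.5) of RA peaks, so about as many were shared seen from either list. At distal sites they were 35.9% (35.2 to 36.7) and 29.9% (29.2 to 30.5). With the 22651 peaks of highest −log10 p taken from each list, 33.2% of LIF peaks and 33.0% of RA peaks were kept.

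The distal share was carried by the alternating tracts. Among distal peaks without a tract, 1794 of 8499 LIF peaks, or 21.1% (20.2 to 22.0), and 1747 of 9405 RA peaks, or 18.6% (17.8 to 19.4), had a counterpart. Among distal peaks with a tract the shares were 52.6% (51.5 to 53.8) in LIF and 40.8% (39.8 to 41.8) in RA. Tracts were thus the group of distal sites most often listed in both states. They made up 35.5% of all LIF peaks and 40.1% of all RA peaks.

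Sharing rose with the height of the peak. LIF peaks with 5 or 6 summit fragments had an RA counterpart in 17.4% of cases, against 86.3% (84.5 to 87.9) of those with at least 20. In the RA list the same 2 groups gave 15.6% and 81.6%. Distal peaks without a tract went from 12.2% to 92.5% in LIF and from 11.5% to 87.7% in RA. Kept peaks had a median of 12 fragments in each list, LIF only peaks 9 and RA only peaks 10, and the peaks of a single state were therefore mostly the low ones. Whether a site of a single state held fragments below the caller's limit (p of 1e-05) in the other state cannot be read from lists of called peaks.

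**Figure D1:**
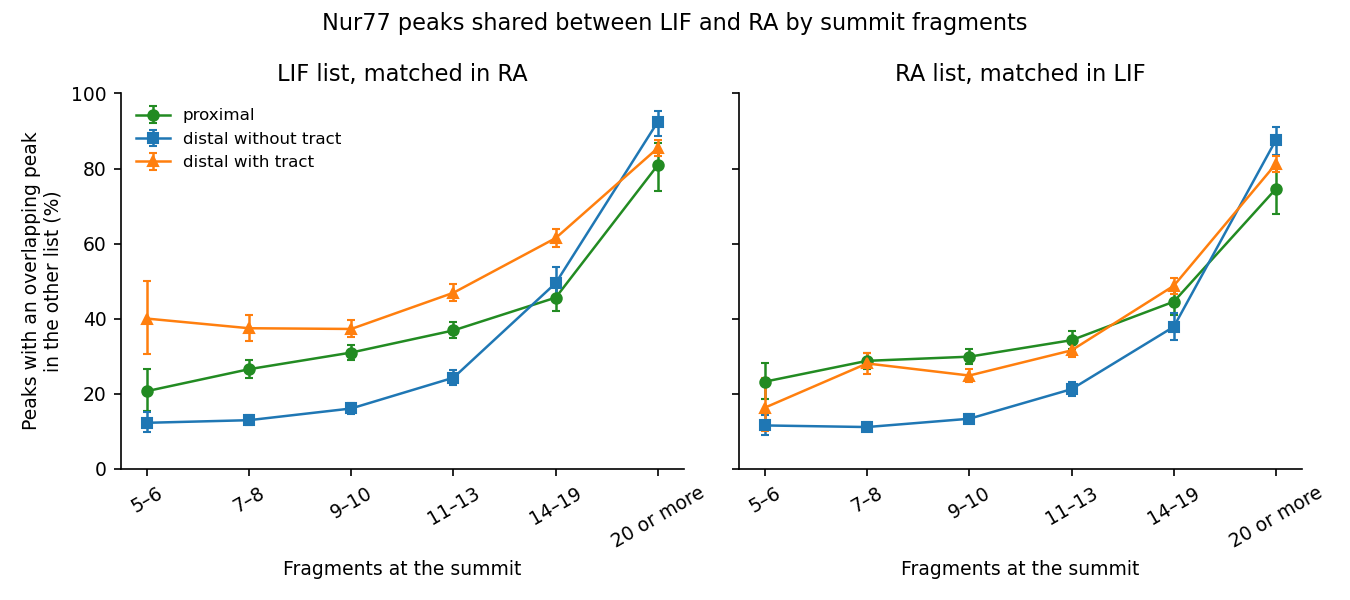
Share of Nur77 peaks with an overlapping peak in the other list (y axis, percent), by the number of fragments at the summit (x axis, in groups), for LIF peaks on the left and RA peaks on the right; green circles are proximal, blue squares distal without a tract and orange triangles distal with a tract, with 95% Clopper-Pearson intervals. In every zone the share is highest at 20 or more fragments, and it goes from 12.2% to 92.5% for distal LIF peaks without a tract.

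Where a peak was present in both states, the number of fragments at its summit was about the same, although the inferred depth was lower in RA. Of 8112 overlapping pairs, 7769 joined 1 peak with 1 peak, and over these the ratio of RA to LIF fragments had a median of 1.00, with quartiles of 0.818 and 1.30. Distal pairs with a tract in the LIF peak, the RA peak or both had a median ratio of 1.08. Divided by the ratio of the lowest backgrounds in a window of the fragment length, these medians were 1.23 and 1.33. Relative to inferred depth the RA summits thus held more fragments, and whether binding was stronger in RA was not tested. The summits of a pair lay a median of 22 bp apart, and 91.7% were within 100 bp.

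By place in the genome the classes were similar, with proximal promoters a smaller share of RA only peaks. Proximal promoters took 28.4% of kept LIF peaks, 29.7% of LIF only peaks and 25.3% of RA only peaks. Gene bodies took 33.6%, 35.4% and 37.6%, and intergenic space took 29.0%, 26.9% and 28.1%. Distal promoters, from 5000 to 1000 bp upstream of a start, took 9.04%, 8.06% and 9.03%. Within the proximal promoters the kept peaks sat closer to the start. Among peaks within 1000 bp of the nearest protein-coding start, the median distance was 100 bp for kept LIF peaks, 150 bp for LIF only peaks and 134 bp for RA only peaks, and 75.4% (73.5 to 77.3), 66.1% (64.6 to 67.6) and 66.9% (65.4 to 68.4) lay within 250 bp.

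Of 21911 protein-coding genes, 3078 (14.0%) had a Nur77 promoter peak in both states, 2583 (11.8%) in RA only and 2506 (11.4%) in LIF only. The remaining 13744 genes, or 62.7%, had none. The states were thus close to balanced, with 5584 bound genes in LIF and 5661 in RA, of which the kept genes were 55.1% and 54.4%. In 2165 of the kept genes, or 70.3%, peaks of both lists overlapped each other, while in the others they lay at separate places of the promoter. Promoters shared by neighbouring genes were counted for each gene, and 11.0% of the LIF peaks and 10.5% of the RA peaks at protein-coding promoters served more than 1 gene.

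The balance between the states depended on the number of peaks admitted. With 22651 peaks per list, the RA list lost 3344 peaks with a −log10 p under 8.04, and 2694 genes (12.3%) were kept, 2077 (9.48%) were RA only and 2890 (13.2%) were LIF only. The trimming moved 384 kept genes to LIF only and 506 RA only genes to neither. RA only genes thus outnumbered LIF only genes with all peaks, and LIF only genes outnumbered RA only genes with equal numbers. With a −log10 p of at least 10 in both lists, 1973 genes were RA only and 1607 were LIF only. No excess of either class can be read from these lists.

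Genes in the 3 bound classes resembled each other more than they resembled unbound genes. In 1000 bp around the start, the ratio of observed to expected CpG, which marks CpG islands, had a median of 0.768 in kept, 0.709 in RA only, 0.720 in LIF only and 0.328 in unbound genes. A ratio above 0.6 was found in 79.6%, 66.3%, 69.8% and 30.2%. The genes had a median of 5, 5, 4 and 2 annotated starts, and a gene with more starts offers more sequence to a peak. The best promoter peak had a median of 11 fragments in LIF and 10 in RA for kept genes, and 10 in each class of a single state. A LIF promoter with at least 20 fragments was also listed in RA for 88 of 100 genes, against 55 of 142 genes where it had 5 or 6.

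By the rule of highest −log10 p in both lists, outside tracts, the kept genes were led by Sfi1, Gm10800, Setd2, Gm10722, Lca5l and Gm10715. The peak at Sfi1, a homologue of a centrin-binding protein, had 125 fragments in LIF and 114 in RA. The predicted genes Gm10800, Gm10722 and Gm10715 had 106 and 102, 43 and 37, and 37 and 34. These 4 promoters had peaks in all 6 libraries of the other antibodies as well. Setd2, which encodes the methyltransferase for lysine 36 of histone H3, had 66 fragments in LIF (chr9:110616446-110616960) and 95 in RA, and Lca5l had 31 and 54. The Setd2 peak was at a later annotated start, near the far end of the gene (chr9:110532597-110618633, plus strand). The Lca5l peak (chr16:96186196-96186356 in LIF) was also at a later start within its gene (chr16:96158407-96192271, minus strand). Setd2 and Lca5l had peaks in 5 of those 6 libraries. No control library was named for the peak calling. Whether the signal at these strongest kept promoters is particular to Nur77 was not tested.

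The RA only genes of highest −log10 p were Eno4, Ankrd26, Lpin2, 4931408C20Rik, Cdk10 and Prkca. The peak at chr19:58943579-58943760 held 25 fragments (−log10 p of 31.6) and served both Eno4, an enolase gene, and Hspa12a, a gene of the heat shock protein 70 family. Ankrd26 had 22 fragments, Lpin2, which encodes a phosphatidate phosphatase, 20, and 4931408C20Rik 19. Cdk10, a cyclin-dependent kinase gene, had 25 and Prkca, the gene of protein kinase C alpha, had 19. The Prkca peak (chr11:108013579-108013699) was at a later annotated start within the gene (chr11:107933387-108343928, minus strand). All 6 were higher than any of the named LIF only genes by −log10 p, while the numbers of fragments overlapped.

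The LIF only genes were led by U2surp, Thg1l, Eaf2, Mfsd14a, Atp23 and Lonp2. U2surp, whose product associates with the U2 snRNP of the spliceosome, had 19 fragments at chr9:95511507-95511697 and a −log10 p of 23.1. Thg1l, a tRNA guanylyltransferase gene, and Eaf2, the gene of an elongation cofactor, had 17 each, and Mfsd14a had 18. Atp23 and Lonp2, which encode proteases of mitochondria and peroxisomes, had 19 each. Each of these 6 promoters had a peak in at least 2 of the 6 other libraries.

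Among the genes of the receptor itself and its partners, Nr4a1 was LIF only, with 11 fragments at chr15:101254333-101254419, 120 bp downstream of a start. Nr4a3, a close relative, was kept with 13 fragments in LIF and 12 in RA, but at separate places, and its LIF peak lay on an alternating tract. Rxrg, one of the RXR genes, was kept with overlapping peaks of 12 and 8 fragments. Rarb, a retinoic acid receptor gene that RA is known to induce, was RA only with 7 fragments. Nr4a2, Rxra, Rxrb, Rara and Rarg had no promoter peak, so 4 of these 9 genes were bound in either state and 5 were not. The bound share was 44.4%, beside 37.3% of all genes.

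Immediate early genes, the class to which Nr4a1 itself belongs, were seldom listed. Of 22, Jund was LIF only with 17 fragments, Ier2 was LIF only with 10, Egr2 was RA only with 15 on a tract, and the other 19, Fos, Jun, Egr1 and Myc among them, had no peak. None was kept, beside 14.0% of all genes. Of 10 genes taken as textbook targets of Nur77-type receptors, Fbp2, a fructose bisphosphatase gene, was RA only with 11 fragments, and the other 9, Pomc, Star and Th among them, had no promoter peak. The bound share was 10%, beside 37.3% of all genes. A CpG ratio above 0.6 was found in 0% of these targets, beside 45.9% of all genes.

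Of 30 pluripotency genes, 3 were kept, 4 were RA only, 2 were LIF only and 21 had no peak. The bound share of 30% was below the 37.3% of all genes, and 13.3% were RA only and 6.67% LIF only, beside 11.8% and 11.4% of all genes. The kept genes were Sox2, with 13 fragments in LIF and 11 in RA, Stat3, with 13 and 15, and Nr0b1, with 7 and 6. Nr0b1 became LIF only with equal numbers of peaks. Nanog was LIF only with 18 fragments (−log10 p of 16.1) at chr6:122708549-122708655, 1034 bp from a start measured at its summit, and no other library had a peak there. Tfcp2l1 was LIF only with 15. The RA only genes were Klf2 and Klf4, with 11 each, and Lin28a and Utf1, with 12 each. Pou5f1, Esrrb, Zfp42 and Prdm14 were among those without a peak.

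Of 15 genes of retinoid synthesis, binding and breakdown, 12 were in neither list, Cyp26a1 and Aldh1a2 among them, which is 80% beside 62.7% of all genes. Crabp1, which encodes a cellular retinoic acid binding protein, was LIF only with 10 fragments, and Stra8 was LIF only with 9. Rdh10, a retinol dehydrogenase gene, was RA only with 9 fragments and fell out of the list with equal numbers of peaks. No peak at a gene of these short lists had the NBRE word in its summit window.

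**Figure D2:**
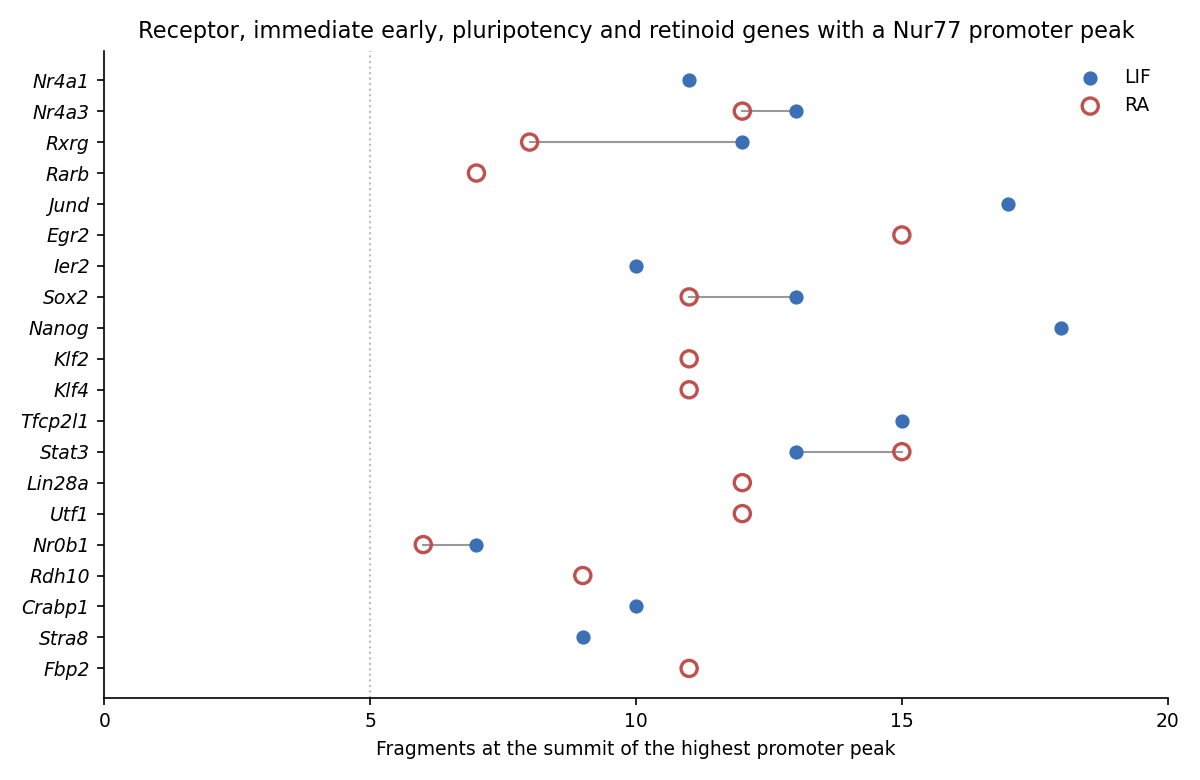
Fragments at the summit of the highest Nur77 promoter peak (x axis) for the genes of the short lists that had a peak (y axis); filled blue points are LIF, open red points RA, a line joins the 2 states of a kept gene, and the dotted line at 5 is the smallest number of fragments in either list. Nanog stands highest in LIF at 18 fragments, and Nr0b1 has the lowest kept pair at 7 and 6.

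Among larger families, genes for splicing proteins were the most often bound. Of 31 SR and hnRNP genes, whose products select splice sites, 14 were kept (45.2%, beside 14.0% of all genes), 5 were RA only and 6 were LIF only. Srsf2 had 11 fragments in both states, Srsf7 12 in both, and Hnrnpk 12 in LIF and 13 in RA. With equal numbers of peaks 13 were kept. These genes had a median of 7 starts, beside 3 over all genes, and 87.1% of them had a CpG ratio above 0.6, beside 45.9% of all genes. The part of promoter number and CpG content in the count was not tested.

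Other families of basic cell functions were also bound at a higher share than all genes (37.3%). Their kept shares, from 16.1% to 25.5%, were below the 45.2% of the splicing genes and above the 14.0% of all genes. Kept genes were 29.4% to 42.5% of the bound ones, beside 37.7% over all genes. Of 34 snRNP and Lsm genes 8 were kept, 11 were RA only and 4 were LIF only. The 86 cytosolic ribosomal protein genes held 17, 11 and 12, with Fau at 15 fragments in LIF and 20 in RA and Rpl26 LIF only at 17. The 79 genes of heat shock proteins and chaperones held 17, 17 and 19, with Cct7, a subunit of the chaperonin, at 18 in both states. Of 93 nuclear genes of the respiratory chain 15 were kept, 17 were RA only and 19 were LIF only, and Cox4i1, a cytochrome c oxidase subunit gene, had 25 in LIF and 13 in RA. Mitochondrial ribosomal proteins (17, 10 and 16 of 78), translation initiation factors (14, 11 and 9 of 55), aminoacyl-tRNA synthetases (8, 8 and 7 of 37), proteasome subunits (11, 10 and 5 of 49) and nuclear pore proteins (7, 8 and 5 of 29) had members in each of the 3 classes. All families of this paragraph had a median of 4 to 6 starts, beside 3 over all genes. A CpG ratio above 0.6 was found in 70.9% to 90.9% of their genes, beside 45.9% of all genes. The part of these traits was not tested.

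CREB and ATF factors held 6 kept genes of 14, with 2 RA only and 1 LIF only. These shares were 42.9%, 14.3% and 7.14%, beside 14.0%, 11.8% and 11.4% of all genes. The list had a median of 6.5 starts, beside 3 over all genes. A CpG ratio above 0.6 was found in 100% of it, beside 45.9% of all genes, and the part of these traits was not tested. Atf4 had 15 fragments in LIF and 10 in RA, and Crtc1, the gene of a CREB coactivator, had 17 and 15. Crtc2 was RA only with 21 fragments on a tract. Of 20 coregulators of nuclear receptors 5 were kept, Ncor1, a corepressor gene, with 15 and 12 fragments among them. The kept share was 25% and the bound share 55%, beside 14.0% and 37.3% of all genes. These genes had a median of 7.5 starts, and 80% of them had a CpG ratio above 0.6. The histone acetyltransferase genes Ep300 and Crebbp were RA only, with 16 fragments on a tract and with 9, and Med1 and Kdm1a were LIF only with 10 and 11.

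Of 39 other nuclear receptors 7 were kept, 6 were RA only and 1, Nr2f6, was LIF only with 15 fragments. These shares were 17.9%, 15.4% and 2.56%, beside 14.0%, 11.8% and 11.4% of all genes. The bound share of 35.9% was near the 37.3% of all genes. With equal numbers of peaks the counts were 4, 5 and 4, so the lack of LIF only genes rested on the lowest RA peaks. Nr1d2, a receptor of the circadian clock, had 12 fragments in LIF and 10 in RA. Nr2f1, which encodes COUP-TFI, a regulator of neural development, was RA only with 11 fragments.

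Developmental families were bound about as often as all genes, with few kept genes in some of them. Of 71 axon guidance ligands and receptors 4 were kept (5.63%), 14 were RA only and 13 were LIF only. Kept genes were 12.9% of the bound ones, beside 37.7% over all genes. Dcc and its ligand gene Ntn1 were RA only with 11 and 12 fragments, while the ephrin receptor genes Epha2 and Ephb3 were LIF only with 11 and 12. With equal numbers of peaks the counts were 4, 8 and 13. Of 49 Wnt pathway genes 4 were kept, 9 were RA only and 7 were LIF only. Among the ligand genes, Wnt1 was RA only at 13 fragments and Wnt5a LIF only at 16. The kept genes were Apc, Axin1, Ctnnb1 and Tcf7l2, while Gsk3b was RA only with 9 and Dvl2 LIF only with 19.

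Of 42 genes of the neural lineage 6 were kept, 4 were RA only and 3 were LIF only. These shares of 14.3%, 9.52% and 7.14% were close to or below the 14.0%, 11.8% and 11.4% of all genes. Neurog2, a proneural factor gene, had 11 fragments in both states, Pou3f2 12 in LIF and 13 in RA, and Map2, the gene of a dendritic microtubule protein, 8 and 16, where the RA peak lay on a tract and the LIF peak did not. Sox1 and Nes, both of neural progenitors, were RA only with 14 each, and the Notch ligand gene Dll1 was LIF only with 14. The 39 Hox genes, which pattern the body axis and include known targets of RA, held 5 kept, 6 RA only and 4 LIF only genes, with 7 to 14 fragments. Bound Hox genes stood at 38.5% of the family, close to the 37.3% of all genes.

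Of 27 FGF ligands and receptors 4 were kept, 1 was RA only and 4 were LIF only, a bound share of 33.3% beside 37.3% of all genes. Fgfr1, the receptor gene central to the study, was kept with 19 fragments in LIF and 11 in RA, and Fgf1 with 14 in both, on a tract. Of 30 Polycomb genes, which keep developmental genes silent, 7 were kept, 7 were RA only and 4 were LIF only, with 60% bound and 23.3% kept, beside 37.3% and 14.0% of all genes. The Polycomb genes had a median of 7 starts, beside 3 over all genes. A CpG ratio above 0.6 was found in 83.3% of them, beside 45.9% of all genes, and the part of these traits was not tested. Ezh2, the methyltransferase gene, was kept with 13 and 10 fragments and Eed with 8 and 10, while Suz12, the third core subunit gene, was LIF only with 9. Of 16 genes of the Bcl2 family, regulators of apoptosis, Bax was kept with 14 and 17 fragments and Bbc3, on a tract, with 17 and 18. The bound share of this family was 37.5%, near the 37.3% of all genes. Cyclin, CDK, E2F and licensing genes (8, 10 and 8 of 54), voltage-gated ion channels (8, 6 and 9 of 64) and Zfp zinc finger genes (63, 51 and 48 of 391) were spread over the 3 classes. Their bound shares were 48.1%, 35.9% and 41.4%, beside 37.3% of all genes. The first of these lists had a median of 5 starts and a CpG ratio above 0.6 in 83.3% of its genes.

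Families of tissue-specific genes were bound at lower shares than the 37.3% of all genes. A CpG ratio above 0.6 was found in 0% of olfactory receptors and keratins and 0.307% of vomeronasal receptors. It was found in 8.16% of cytochrome P450 genes and 37.5% of clustered protocadherins, beside 45.9% of all genes. These lists had a median of 1 or 2 starts, beside 3 over all genes. The part of these traits in the low shares was not tested. Of 1134 olfactory receptor genes 12 were kept, 16 were RA only and 11 were LIF only, which is 3.44% bound. Vomeronasal receptors had 1 bound gene of 326, clustered protocadherins 5 of 56, keratins 6 of 53 (11.3%) and cytochrome P450 genes 13 of 98 (13.3%). Replication-dependent histone genes, whose promoters are rich in CpG, were also low at 10 of 67, with Hist4h4 kept at 29 fragments in LIF and 14 in RA.

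**Figure D3:**
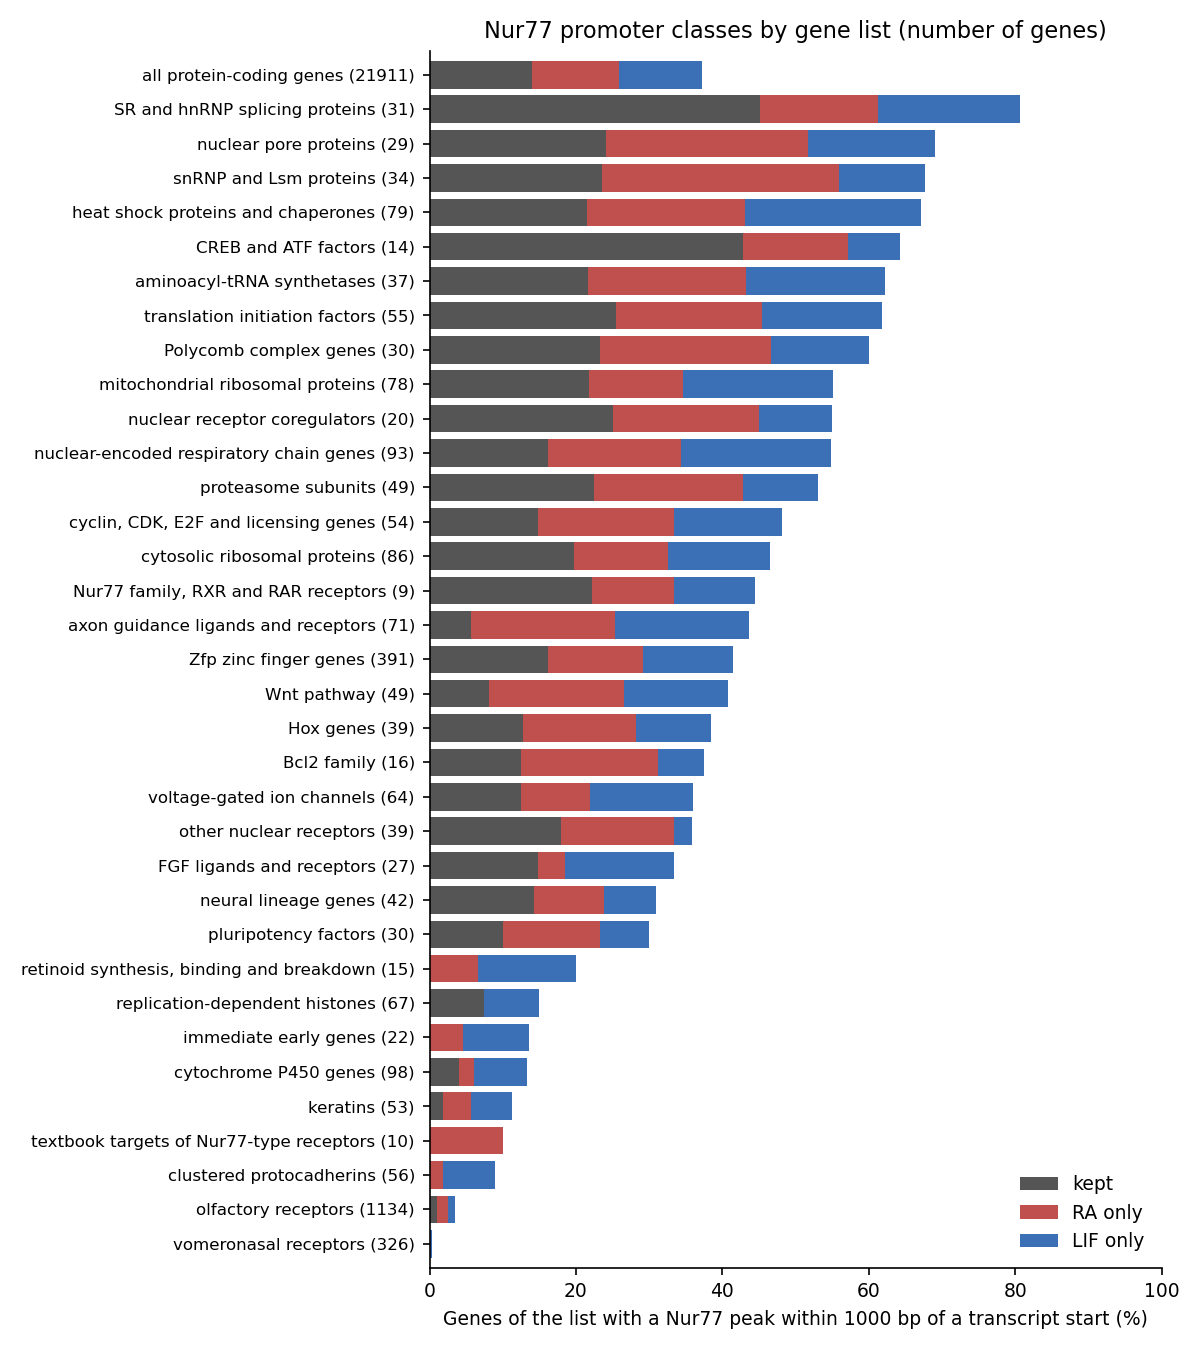
Share of the genes of each list with a Nur77 promoter peak (x axis, percent), split into kept, RA only and LIF only; the number of genes in each list is in brackets (y axis), and all protein-coding genes are at the top. The SR and hnRNP splicing genes reach the highest bound share, 80.6%, and the axon guidance genes have a narrow kept segment, 5.63%.

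The receptor's own words were rare and did not mark a class at promoters. The core AGGTCA, counted on both strands and including the NBRE, was present in 4.43% of windows of the same length at the starts of all protein-coding genes. It stood in 4.64% (4.03 to 5.31) of LIF only, 4.62% (4.02 to 5.27) of RA only and 3.86% (3.11 to 4.73) of kept promoter windows at the LIF summit. The NBRE word, found in 0.306% of all promoters, stood in 9 LIF only and 7 RA only windows and in 2 kept windows at the LIF summit. These shares of 0.208%, 0.154% and 0.0877% were below the 0.427%, 0.308% and 0.373% of flanks 400 bp to either side. Over all zones 36 LIF and 31 RA windows held it, which was 3.42% and 2.64% of those with the core. The NurRE-type everted repeat, searched as a word spanning 22 bp, was not found in any window. It was also absent from all flanks and from the windows of all 21911 promoters. Its absence at summits therefore says nothing about dimer sites, and looser forms were not searched.

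At distal peaks without a tract the core was more frequent in the peaks of a single state than in kept ones. It stood in 7.89% (7.26 to 8.56) of LIF only windows, with 5.996% in flanks 400 bp to either side, and in 7.51% (6.93 to 8.12) of RA only windows, with 6.31% in flanks. In kept windows it stood in 4.35% (3.45 to 5.40) at the LIF summit and 5.04% (4.06 to 6.17) at the RA summit, below their flanks of 5.74% and 5.95%. The kept distal peaks without a tract also lay more often in repeats, with the summit in a repeat-masked base for 40.1% of them in LIF, beside 16.9% of LIF only peaks. The NBRE word stood in 20 LIF only windows and in 15 RA only windows of this group. These shares of 0.298% and 0.196% were below the 0.492% and 0.535% of their flanks, unlike those of the core. The direct repeat of the core with a spacer of 5 bp, the usual element of RAR and RXR, was found in 2 RA only distal peaks, the stronger of them in Lancl1 with 8 fragments. Its sequence is given with both copies and their spacer in capitals, of which the last letters also spell the NBRE word AAAGGTCA.
Direct repeat, RA only, in Lancl1, chr1:67002468-67002497: cgtctcaAGGTCAGCCAAAGGTCAggtggg

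The NRF1 word was least frequent at LIF only promoters. It stood in 31 of 4331 LIF only windows, or 0.716% (0.487 to 1.01), and in 129 of 4550 RA only windows, or 2.84% (2.37 to 3.36), while 1.18% of all promoters and at most 0.330% of the flanks held it. In kept promoters it stood in 1.80% (1.29 to 2.43) at the LIF summit and 2.99% (2.33 to 3.77) at the RA summit. The intervals of LIF only and RA only did not overlap. The word alternates purines and pyrimidines itself, and without tract peaks the shares were 0.732% and 2.98%. With equal numbers of peaks they were 0.738% and 3.35%, and with a −log10 p of at least 10 and no tract, a limit chosen after seeing the data, 0.877% (0.512 to 1.40) and 5.22% (4.33 to 6.22).

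The NRF1 word followed the state in some of the other libraries and not in others. Over all proximal peaks it stood in 1.09% (0.853 to 1.37) of windows in the Nur77 LIF library and 2.89% (2.50 to 3.31) in the RA library. RXR gave 1.23% in LIF and 2.55% in RA. FGFR1 gave 2.20% in LIF and 2.21% and 1.48% in its 2 RA libraries, so libraries of a single state and antibody also differed. The lists of the other libraries held from 10634 to 46137 peaks, and the part of list size in these shares was not tested.

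The CRE was most frequent at kept promoters. It stood in 2.32% (1.75 to 3.03) of kept windows at the LIF summit and 2.51% (1.90 to 3.23) at the RA summit, in 1.38% (1.07 to 1.77) of RA only windows and in 0.693% (0.468 to 0.987) of LIF only windows, beside 1.35% of all promoters. With a −log10 p of at least 10 and no tract these 4 shares were 5.10%, 4.97%, 1.98% and 0.980%. The E-box CACGTG, bound by Myc, USF and other factors, followed the same order, with 7.10% (6.08 to 8.23) and 7.78% (6.71 to 8.96) in kept, 6.02% (5.35 to 6.75) in RA only and 4.43% (3.84 to 5.09) in LIF only windows, beside 3.34% of all promoters. The E-box alternates purines and pyrimidines too, and without tract peaks it stood in 6.35%, 7.51%, 5.70% and 4.17% of these windows. The ETS word CCGGAAG stood in 2.98% of LIF only and 3.03% of RA only windows and the YY1 word ATGGCGGC in 1.59% and 1.34%, beside 6.60% and 1.74% of all promoters. In the flanks of these classes the ETS word stood in 1.84% and 1.49% and the YY1 word in 0.496% and 0.451%. The flanks of kept, RA only and LIF only promoter peaks held the CRE in at most 0.319% and the E-box in at most 1.99%. Windows of all promoters lie at the starts, while those of peaks lie at summits. At distal peaks without a tract the word of CTCF, an insulator protein, stood in 28 LIF only windows, or 0.418% (0.278 to 0.603), and in 64 RA only windows, or 0.836% (0.644 to 1.07). These words are matches of letters and do not show that the named factor was bound.

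**Figure D4:**
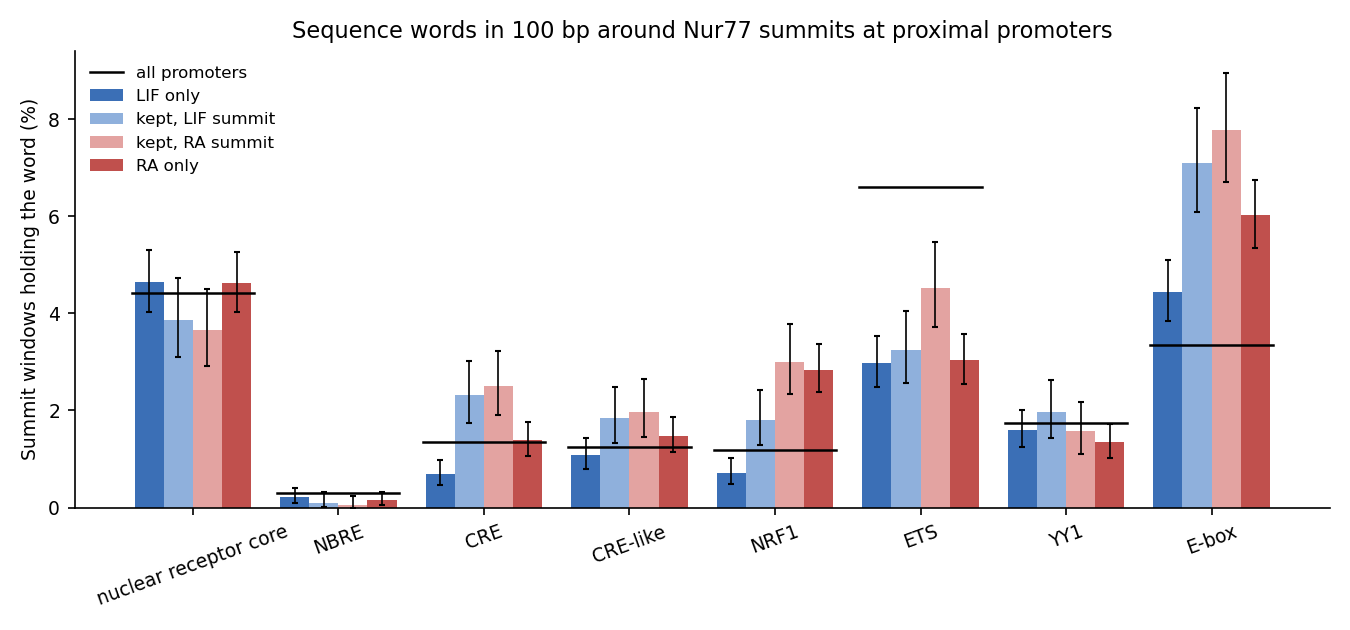
Share of 100 bp windows around Nur77 summits at proximal promoters that held each sequence word on either strand (y axis, percent), for LIF only, kept and RA only peaks, with 95% Clopper-Pearson intervals; black lines are windows of the same length at the starts of all protein-coding genes. The NRF1 word stands at 0.716% in LIF only and 2.84% in RA only peaks, while the nuclear receptor core differs little between the classes.

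Distal sites of a single state lay as far from genes as kept ones. Without a tract, the median distance to the nearest protein-coding start was 21419 bp for kept LIF peaks, 20771 bp for LIF only peaks and 19546.5 bp for RA only peaks, and 27.2%, 29.0% and 27.7% lay beyond 50000 bp. With a tract the distances were larger, at 31830, 33903 and 35748.5 bp. A CA repeat of at least 10 units stood in 70.0% of kept LIF, 70.3% of LIF only and 77.0% of RA only tract peaks. The tracts were longer in kept peaks, with a median of 49 bp in LIF and 51 bp in RA, than in LIF only (36 bp) or RA only (40 bp) peaks.

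The named distal sites were chosen by −log10 p outside tracts, for kept sites by the lower value of both lists. That rule favours sites high in both states, so the heights of the kept sites, given first, are a description only. Near Tcp10c (chr17:13305935-13306264) the peak had 85 fragments in LIF and 83 in RA, near A1cf (chr19:31825146-31825386) 71 and 75, near Ly6c2 (chr15:75086639-75086991) 107 and 86, and upstream of Gcc2 (chr10:58281626-58281830) 60 and 74. These 4 sites had LIF peaks that overlapped peaks of 5 or 6 of the other libraries. Whether their signal is particular to Nur77 was not tested. The RA only sites held 30 fragments near Galnt18 (chr7:111824818-111824958), 25 near Slc16a7 (chr10:125609340-125609489), 24 near Maml3 (chr3:52166801-52166940) and 21 in Bnc2 (chr4:84401985-84402139). All 4 lay in repeat-masked sequence and each overlapped 3 or 4 of the other libraries. The kept sites at Tcp10c, A1cf and Gcc2 and the LIF only site at Ttll7 were repeat-masked too. The RA only sites at Slc16a7 and Maml3 held alternating runs of 19 and 18 bp, just under the limit of 20 bp. The start of Slc16a7 was 219954 bp away. The LIF only sites given here held 28 fragments in the region nearest to Ttll7 (chr3:147833557-147833690), 30 in intergenic sequence nearest to Vmn1r238 and 21 in Nr3c2 (chr8:77064412-77064528), the mineralocorticoid receptor gene. These 3 overlapped 2 or 3 of the other libraries.

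The kept promoters were those bound most often by the partner proteins. A promoter peak of RXR in LIF was present at 90.4% (89.3 to 91.4) of kept genes, 68.5% (66.7 to 70.3) of RA only, 70.3% (68.5 to 72.1) of LIF only and 21.8% of unbound genes. For RXR in RA the shares were 62.7% (61.0 to 64.4), 40.2% (38.3 to 42.1), 36.0% (34.1 to 37.9) and 9.01%. FGFR1 in LIF was present at 51.7%, 25.4%, 26.9% and 5.80%. RA only and LIF only genes thus had overlapping intervals for RXR in LIF, while for RXR in RA the share of RA only genes was higher and the intervals did not overlap. In each case the kept genes stood above both. The RXR lists differed in size, with 30586 peaks in LIF and 15224 in RA, so their levels are not compared with each other.

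H3.3, a histone variant laid down at active genes and measured in RA, was at 48.6% (46.8 to 50.4) of kept, 29.2% (27.4 to 31.0) of RA only, 20.4% (18.9 to 22.1) of LIF only and 4.58% of unbound genes. The intervals of RA only and LIF only genes did not overlap, and with equal numbers of peaks the shares were 31.3% (29.3 to 33.3) and 22.5% (21.01 to 24.1). The FGFR1 libraries in RA gave 82.6% and 79.9% in the first replicate and 71.8% and 77.2% in the second for RA only and LIF only genes, so the order of the classes differed between replicates.

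**Figure D5:**
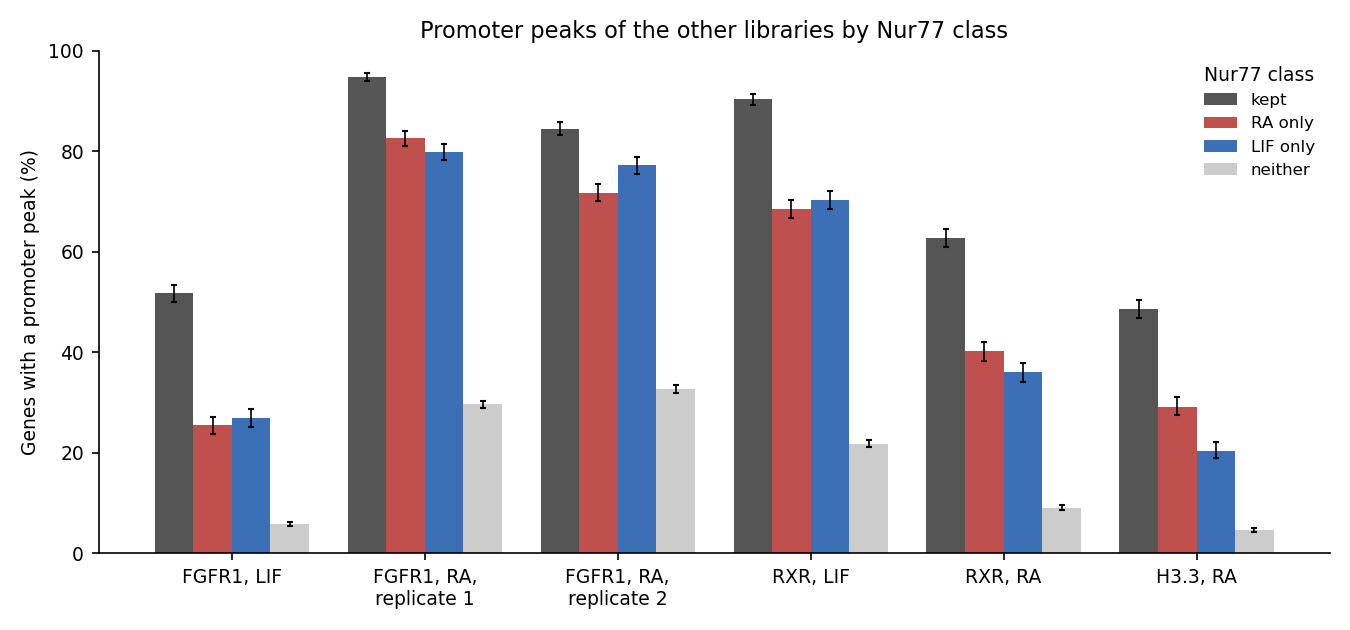
Share of genes with a promoter peak in each of the other 6 libraries (y axis, percent; libraries on the x axis) for genes whose Nur77 promoter peak was kept, RA only, LIF only or absent, with 95% Clopper-Pearson intervals. Kept genes stand highest in every library, and H3.3 separates RA only (29.2%) from LIF only (20.4%) genes.

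At distal peaks without a tract, 73.3% of LIF only and 62.6% of RA only peaks overlapped none of the 6 other libraries, against 17.6% of kept LIF peaks. RXR in LIF overlapped 53.5% of kept, 10.9% of LIF only and 13.1% of RA only peaks. With a tract, 55.0% of LIF only, 45.0% of RA only and 8.67% of kept LIF peaks overlapped a peak of no other library. Distal Nur77 sites of a single state were thus mostly seen with the Nur77 antibody alone, where no tract was present.

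The overlap between the states can be set beside that of the other antibodies. Of the protein-coding genes bound by RXR in LIF 45.6% were bound in RA, and of those in RA 83.1% were bound in LIF. FGFR1 gave 93.5% and 31.3% of genes in this order with the first RA library and 91.1% and 31.2% with the second. For FGFR1 in RA, which has 2 libraries of the same state, 77.8% of the genes of the first were bound in the second and 79.6% the other way, while their peaks overlapped at 20.6% and 58.4%. Nur77 between the states gave 55.1% and 54.4% of genes and 35.5% and 30.8% of peaks. The lists behind these shares differed in size. RXR bound 9312 genes in LIF and 5110 in RA, and FGFR1 3720 in LIF and 11121 and 10872 in RA. Nur77 bound 5584 and 5661. The part of list size in the shares was not tested. Nur77 itself has no second library of a state, so the part of its loss and gain that repeat libraries would also show cannot be told apart from the change of state.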

How the data were processed

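Nur77 ChIP-seq was analysed in 1 library per state. Chromatin was recovered with the MAGnify system, prepared with TruSeq ChIP and sequenced on an Illumina HiSeq. Per the submitters' processing notes and the study's methods, the authors aligned reads to mm10 with Bowtie 1.0, kept unique alignments and ran MACS2 on every library by itself, with p limited to 1e-05, no control library named and no pooling. The deposited columns are a score, the fold of the summit over background, the −log10 p-value, the −log10 q-value and the summit offset, all as the authors' caller wrote them. They were used to rank, filter and describe peaks.

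From fold = (k + 1)/(λ + 1) and the Poisson tail above k, the summit fragments k and background λ were solved for 100% of peaks within 0.002 of the deposited −log10 p. The smallest width gave the fragment length (87 bp in LIF, 92 bp in RA), and the lowest background divided by it the depth in fragments per kb. These depths are inferred. The solver and the class counts were tested on simulated data.

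Genes and the 141767 transcript starts were from GENCODE M21 on GRCm38. A peak took the first of proximal promoter, distal promoter, gene body and intergenic space that it overlapped by 20 bp. Words were counted in 100 bp around summits. Work was done in Python 3.11.15 with numpy 2.4.6, pandas 2.3.3, scipy 1.17.1, pysam 0.24.0 and matplotlib 3.10.9.

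Per class, the 6 genes and 4 distal sites of highest −log10 p (for kept, the lower of both lists) without a tract were named if they stayed in the class with equal numbers of peaks, with all members of the 5 short lists. Of the distal sites, 1 is not reported here. Other members were named after their values were seen. The comparison and the 34 gene lists were chosen with earlier results of these data known. In the immediate early list, Cyr61 had no match in the annotation. Alternatives were equal numbers of peaks by −log10 p or fold, limits on −log10 p, −log10 q and fold, no tract peaks, chromosomes 1 to 19, X and Y, other peak matching and other promoter sizes.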

Additional observations from a re-analysis of the deposited data

How the results depend on the processing

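Shares are given in the order LIF peaks kept, RA peaks present in LIF, distal LIF peaks kept and distal RA peaks present in LIF. They became 33.2%, 33.0%, 34.3% and 32.0% with equal numbers by −log10 p, 33.2%, 32.9%, 34.3% and 32.0% with equal numbers by fold, and 37.9%, 29.4%, 40.7% and 30.6% with a −log10 p of at least 10. Without tract peaks they were 25.3%, 23.6%, 19.8% and 17.7%, with an overlap of 50% of the shorter peak 33.0%, 28.6%, 34.1% and 28.3%, and with summits within 100 bp 32.2%, 28.1%, 33.2% and 27.8%. A fold of at least 5 gave 36.3%, 30.2% and 36.8% for the first 3. A −log10 p of at least 10 left 1099 kept, 1973 RA only and 1607 LIF only genes. Together with the removal of tract peaks, a setting chosen after seeing the data, it gave 23.4%, 19.2%, 21.8% and 16.7%, with 951 kept, 1815 RA only and 1538 LIF only genes. The cause of these changes was not tested. No share or gene count moved beyond its interval, or 1.5 times for gene counts, with promoters of 500 bp, a promoter overlap of 1 bp, chromosomes limited to 1 to 19, X and Y, or a −log10 q of at least 2. Of 102 counts of family members by class, 8 moved by over 1.5 times with equal numbers by −log10 p, 9 without tract peaks, 15 with promoters of 500 bp and 57 with a −log10 p of at least 10, so small family counts depend on the limit. No paired analysis was possible because each state had 1 library, and for the same reason no library could be left out. Depth is inferred from the peaks, and a site under the caller's limit is not listed.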
